A study of Homo sapiens with 9 samples.

Results

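MYC and 34 genes of ribosome production were followed in BxPC3, by its label a human pancreatic adenocarcinoma line, through RNA sequencing of poly(A) RNA in 9 libraries. The 35 genes were chosen by name, as MYC, RNA polymerase I subunits, factors that process and assemble preribosomes, and polyamine and nucleotide enzymes, out of 56865 genes with summed estimated reads. All 35 passed the filter on low counts and were tested together with the other genes of the 13914 that passed.

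The libraries fell into MS172, PK9328 and DMSO, with 3 in each group, and cells of every group carry the same labelled genotype. PK9328 and MS172 are known here by their code names, and nothing is stated of MS172 in the labels beyond its name. Exposure in the protocol was 5 µM for 6 h, but that protocol names PK9328 and MS78 whereas titles and treatment labels name MS172, so for MS172 the dose and time rest on a text about a compound of another name. Separate cultures are not stated for the replicates, so the spread behind each p-value is that of these libraries and may be technical.

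MYC is a transcription factor that binds the E-box sequence CACGTG together with its partner MAX, and genes for ribosome production are among its best known targets. Ribosomes are built in the nucleolus: RNA polymerase I copies the ribosomal DNA into a long precursor RNA, small nucleolar ribonucleoproteins (snoRNPs) guide its chemical modification, and assembly factors cut and fold it into the small and large subunits. Polyamines and nucleotides are needed alongside, and the genes of their rate-controlling enzymes are also classic MYC targets in growing cells.

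Each library held 24077353 to 28031886 estimated reads, of which a member took between 407 reads (UTP20) and 52668 reads (NPM1). Values below are counts per 1000000 reads (CPM), scaled for library composition. The median coefficient of variation over the members was 3.04% with MS172, 3.26% with PK9328 and 3.17% with DMSO. Of 20 ductal and epithelial markers, 13 were under 1 CPM in every library, EPCAM, CDH1 and KRT7 among them, with highest values of 0.0745, 0.0417 and 0.103 CPM. Others of the list were well expressed: in DMSO libraries KRT18, KRT8, KRT19, SOX9 and CLDN4 averaged 785, 732, 311, 289 and 122 CPM, so the list was split between markers present and near 0. The summed level of these markers was 2631 to 2795 CPM with MS172, 2020 to 2101 CPM with PK9328 and 2168 to 2336 CPM with DMSO. For 10 mesenchymal markers, 5 of them under 1 CPM in every library, the sums were 12320 to 12851 CPM with MS172, 9889 to 10155 CPM with PK9328 and 11698 to 11885 CPM with DMSO. In DMSO libraries VIM and COL1A2 of this list averaged 9391 and 2416 CPM, and the next highest, COL3A1, 6.64 CPM. Whether cells with these marker levels match the BxPC3 label was not tested. Acinar and endocrine markers were at 0. The part of these shifts in the results below was not tested, and in bulk samples fewer cells of a type and less RNA per cell cannot be told apart.

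E-boxes were read in the promoter of each member, as 250 bases before and 50 bases after the start site in RefSeq (GRCh38.p14), because CACGTG is the sequence MYC and MAX bind. RefSeq promoters were matched for 29 members, and those of MYC, NOLC1, NOP58, RRP12, BOP1 and RRS1 are named only. CACGTG, which reads the same on both strands, was present in 14 of the 29 (48.3%), against 12.6% of the 9975 tested genes with a promoter and 8.77% of all 27305 genes, each counted at any start site. Of all 35116 promoters taken singly 7.26% held it. The motif CACGCG, searched on both strands and sharing no site with CACGTG, was in 8 of the 29 (27.6%), against 22.9% of tested genes. Of members with a promoter, E-boxes stood in 3 of the 6 that rose with MS172 against DMSO, 4 of the 9 that fell and 7 of the 14 not called. For CACGCG these were 3 of the 6, 3 of the 9 and 2 of the 14. A match says only that these letters are there. Windows around the E-box (in capitals, with 15 bases on each side) are shown for members that moved in opposite directions. SRM lies at chr1:11060197-11060232 on the minus strand, RRP9 at chr3:51941889-51941924 on the minus strand, FBL at chr19:39846353-39846388 on the minus strand, UTP20 at chr12:101280080-101280115 on the plus strand, NAT10 at chr11:34105599-34105634 on the plus strand, and WDR43 at chr2:28894655-28894690 on the plus strand.
SRM: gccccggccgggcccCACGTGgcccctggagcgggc
RRP9: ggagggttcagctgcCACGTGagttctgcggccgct
FBL: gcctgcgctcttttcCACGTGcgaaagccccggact
UTP20: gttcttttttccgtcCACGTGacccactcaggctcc
NAT10: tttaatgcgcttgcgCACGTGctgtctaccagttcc
WDR43: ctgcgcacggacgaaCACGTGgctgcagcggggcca
The motif starts 199 bases before the start site in SRM, 15 before it in NAT10, 10 before it in UTP20 and 5 before it in RRP9, and it starts at base 7 of the transcript in FBL and base 4 in WDR43. SRM, RRP9 and FBL rose with MS172, UTP20 and NAT10 fell with it, and WDR43 rose with PK9328. The 250 bases before the SRM start site (chr1:11060019-11060268, minus strand) are given whole, since SRM differed most between the compounds.
SRM upstream: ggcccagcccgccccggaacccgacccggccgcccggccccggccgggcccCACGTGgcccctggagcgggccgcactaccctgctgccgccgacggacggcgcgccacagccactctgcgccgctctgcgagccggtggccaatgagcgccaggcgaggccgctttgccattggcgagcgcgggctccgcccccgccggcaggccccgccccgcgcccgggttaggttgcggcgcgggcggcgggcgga

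With MS172 against DMSO 18 of the 35 members changed, where 35.1% of all tested genes did, and they went in both directions: 8 rose (22.9% of 35), where 17.9% of all tested genes rose, and 10 fell (28.6%), where 17.2% of all tested genes fell. Those that rose were SRM, RRP12, BOP1, RRP9, NIP7, FBL, NHP2 and NPM1. Those that fell were PPAN, NOP56, UTP20, POLR1A, POLR1B, WDR3, NOP2, NAT10, NOP58 and MRTO4. The log2 fold changes of the 35 members ran from -0.31 (PPAN) to 0.35 (RRP12), with a median of 0.02, beside a median of -0.02 over all tested genes. Setting the library level with a GC and length offset moved the share of higher calls over all genes to 70.16%, against 50.9% here, and the members' counts to 16 higher and 4 lower. Without DMSO replicate 2 the members called higher numbered 5, the calls of NPM1, NHP2 and NIP7 being lost.

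With PK9328 against DMSO 7 members changed, where 15.5% of all tested genes did: 1 rose (2.86%), where 7.98% of all tested genes rose, and 6 fell (17.1%), where 7.48% of all tested genes fell. WDR43 rose, and SRM, BOP1, CAD, POLR1A, MYBBP1A and NCL fell. The median was -0.03 over the members, of which 26 had a negative value, and 0.0023 over all tested genes. DMSO libraries serve both comparisons, so the 2 sets of values are not independent of each other. PK9328 libraries had fragments of 249.5 to 263 bases, against 281 to 289 bases with DMSO, without overlap between these groups, and with fragment length as a covariate no member was called and 175 of 13914 genes were. In that fit the compound and the fragment length cannot be told apart. Leaving out PK9328 replicate 2 or DMSO replicate 1 left 3 members called lower.

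**Figure D1:**
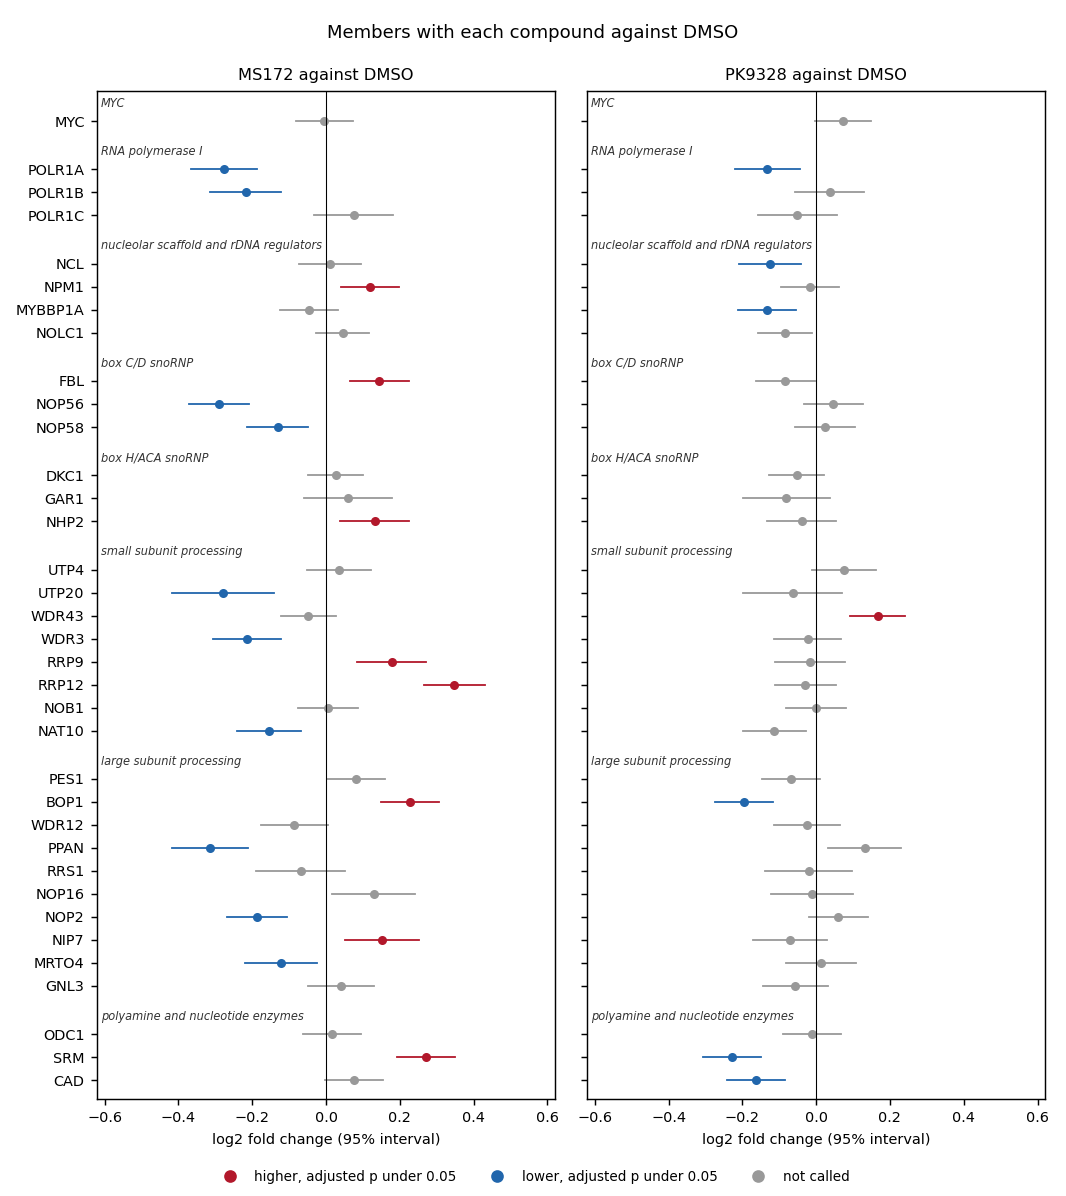
Log2 fold change of each of the 35 members (points) with its 95% interval (lines) for MS172 against DMSO, left, and PK9328 against DMSO, right, in order of role; n = 3 libraries per group. Coloured points have an edgeR adjusted p under 0.05: 8 higher and 10 lower with MS172, 1 higher and 6 lower with PK9328.

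MS172 and PK9328, compared with each other, differed in 25 of the 35 members, where 47.7% of all tested genes differed: 15 were higher with MS172 (42.9%), where 23.3% of all tested genes were higher, and 10 were lower (28.6%), where 24.4% of all tested genes were lower. The median over the members was 0.08, beside -0.03 over all tested genes. The widest differences were those of SRM (0.50), BOP1 (0.42) and RRP12 (0.38) among the higher and of PPAN (-0.45) and NOP56 (-0.34) among the lower. MS172 libraries had fragments of 274 to 293 bases and PK9328 libraries 249.5 to 263 bases, without overlap. With the fragment length covariate 4 members remained higher (NHP2, RRP12, BOP1 and SRM) and 3 lower (POLR1B, NOP56 and PPAN). The calls of all other members between the compounds were lost in that fit. The offset that also sets the level left 4 lower and gave 65.74% higher calls over all genes, against 48.79%. Against DMSO, BOP1 and SRM were called higher with MS172 and lower with PK9328, POLR1A was called lower with both, and 13 members with neither. Singly, 35.1% of all tested genes were called with MS172 and 15.5% with PK9328. Such pairs of calls were not counted over all genes, so nothing is read from their numbers here.

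**Figure D2:**
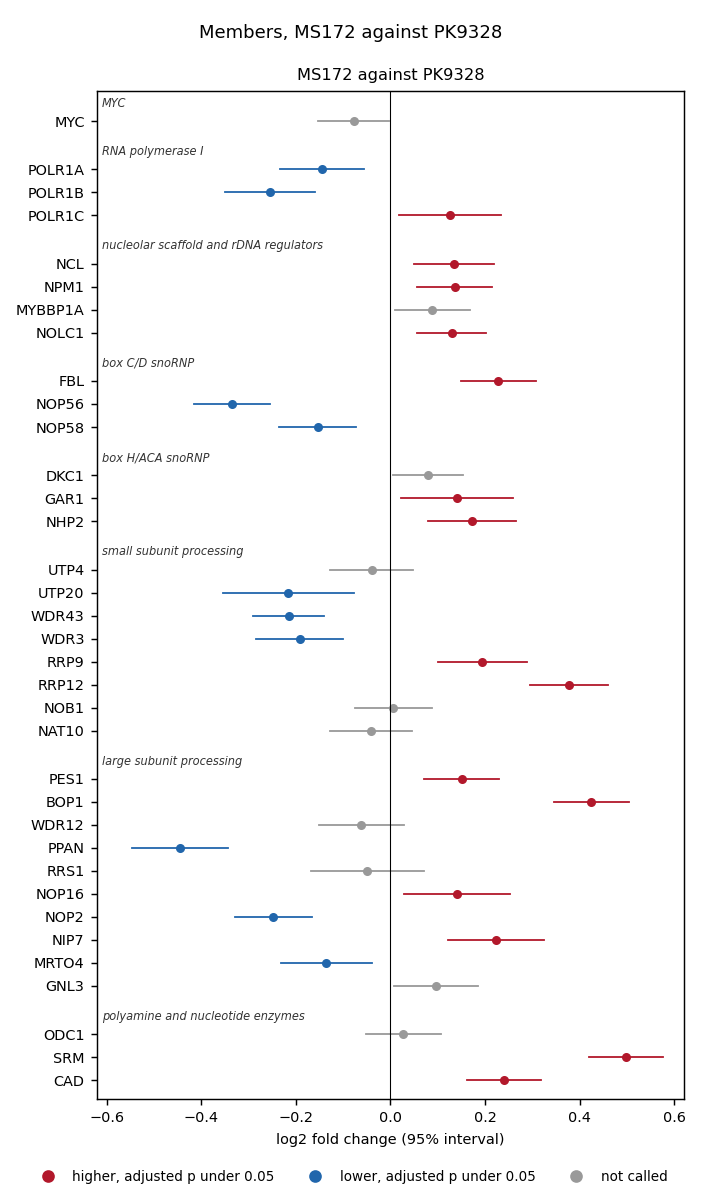
Log2 fold change of MS172 against PK9328 for the 35 members (points) with 95% intervals (lines), in order of role; n = 3 libraries per group. Of the members, 15 lie to the right with an edgeR adjusted p under 0.05, led by SRM at 0.50, and 10 to the left, led by PPAN at -0.45.

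MYC mRNA (chromosome 8, 127735434 to 127741434) was one of the better expressed members, with 185 ± 11.3 TPM (a level per transcript length) in DMSO libraries (SD, n = 3), 6th of the 35. Its libraries had 313, 309 and 321 CPM with MS172, 315, 335 and 345 CPM with PK9328, and 312, 323 and 311 CPM with DMSO. All 3 groups overlapped. The log2 fold change was -0.0043 (95% interval -0.08 to 0.07) for MS172 against DMSO, 0.07 (95% interval -0.0019 to 0.15) for PK9328 against DMSO and -0.08 (95% interval -0.15 to -0.0021) for MS172 against PK9328, with edgeR adjusted p = 0.944, 0.192 and 0.084. The last comparison was called, as lower with MS172, without PK9328 replicate 1 (edgeR adjusted p = 0.0222) and under the centred offset for transcript length and GC (edgeR adjusted p = 0.0183). Both intervals against DMSO lay between -0.08 and 0.15.

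RNA polymerase I fell in its catalytic subunits with MS172. POLR1A (chromosome 2, 86020216 to 86106155), the largest subunit, had 82.7, 77.8 and 79.7 CPM with MS172, 91.5, 90.0 and 84.1 CPM with PK9328, and 95.3, 100.4 and 95.3 CPM with DMSO. The MS172 values lay lowest, DMSO values highest, and no pair of groups overlapped. Its log2 fold change was -0.28 ± 0.044 (SE; edgeR adjusted p = 1.06e-05) for MS172 and -0.13 ± 0.043 (SE; edgeR adjusted p = 0.0329) for PK9328, and MS172 against PK9328 gave -0.15 ± 0.044 (SE; edgeR adjusted p = 0.00703). The PK9328 call was lost without PK9328 replicate 2 or 3 or DMSO replicate 1 or 2 (edgeR adjusted p = 0.059 to 0.188), and its sign turned with counts rebuilt from length-scaled TPM (0.14, not called).

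POLR1B (chromosome 2, 112541915 to 112577150), the second largest subunit, had 63.1, 60.0 and 63.4 CPM with MS172, 75.7, 75.7 and 71.1 CPM with PK9328, and 73.6, 74.7 and 68.7 CPM with DMSO. All MS172 libraries were below all others, and the PK9328 and DMSO values overlapped. It fell with MS172 at -0.22 ± 0.047 (SE; edgeR adjusted p = 0.000512), was not called with PK9328 at 0.04 (95% interval -0.06 to 0.13), and was lower with MS172 than with PK9328 at -0.25 ± 0.046 (SE; edgeR adjusted p = 4.15e-05). POLR1C, an assembly subunit shared with RNA polymerase III, did not follow: it stood at 0.07 (95% interval -0.03 to 0.18) with MS172 and -0.05 (95% interval -0.16 to 0.06) with PK9328. Between the compounds POLR1C was higher with MS172 at 0.13 ± 0.053 (SE; edgeR adjusted p = 0.0498). This call was lost without MS172 replicate 1 or 2 or PK9328 replicate 1 or 2 (edgeR adjusted p = 0.0865 to 0.192), and under 5 of 11 other settings: the replicate block, the fragment length covariate, limma-voom, a filter of 1 CPM and no filter.

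Of 13 further genes of the polymerase I machinery, 2 fell with MS172 (15.4%, near the 17.2% of all tested genes) and none rose, where 17.9% of all genes did. With PK9328 2 rose (15.4%, against 7.98%) and 3 fell (23.1%, against 7.48%). Between the compounds 3 were higher with MS172 (23.1%, against 23.3%) and 6 lower (46.2%, against 24.4%). POLR1G, another polymerase I subunit, fell with MS172 at -0.29, and TAF1B, a subunit of the promoter selectivity factor SL1, fell at -0.47. UBTF, which binds the ribosomal DNA promoter, fell with PK9328 at -0.15, as did TCOF1, a nucleolar cofactor of polymerase I, at -0.20. TAF1A, another SL1 subunit, rose with PK9328 at 0.45. MS172 was higher than PK9328 in TCOF1 (0.20) and lower in TAF1A (-0.56) and TAF1B (-0.60).

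Among nucleolar scaffold and ribosomal DNA regulators, NPM1 rose with MS172, while NCL and MYBBP1A fell with PK9328. NPM1 (chromosome 5, 171387116 to 171411137), a histone and ribosome chaperone and the most abundant member by TPM in every group, had 2002, 2048 and 1944 CPM with MS172, 1804, 1801 and 1852 CPM with PK9328, and 1854, 1774 and 1890 CPM with DMSO. The MS172 libraries were above the rest. The difference was 0.12 ± 0.039 (SE; edgeR adjusted p = 0.016) for MS172, a call lost without MS172 replicate 2 or DMSO replicate 2 (edgeR adjusted p = 0.0779 to 0.0904) and at 0.04 with length-scaled TPM (edgeR adjusted p = 0.639). Against PK9328 it was 0.14 ± 0.039 (SE; edgeR adjusted p = 0.00457), and with length-scaled TPM it was -0.10 and not called.

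NCL (chromosome 2, 231453531 to 231483641), nucleolin, an RNA-binding protein of the nucleolus, had 1211, 1276 and 1297 CPM with MS172, 1201, 1090 and 1156 CPM with PK9328, and 1233, 1224 and 1299 CPM with DMSO. PK9328 values were below DMSO values without overlap, and the MS172 and DMSO values overlapped. NCL fell with PK9328 at -0.12 ± 0.041 (SE; edgeR adjusted p = 0.0378), and this call was lost without PK9328 replicate 2 or 3 or DMSO replicate 1 or 3 (edgeR adjusted p = 0.0666 to 0.279). MYBBP1A, a nucleolar repressor of ribosomal DNA transcription, fell with PK9328 at -0.13 ± 0.038 (SE; edgeR adjusted p = 0.0158), and without PK9328 replicate 1 or 2 or DMSO replicate 1 it was not called (edgeR adjusted p = 0.0501 to 0.124). NOLC1, a chaperone of snoRNPs, was not called with either compound (0.04 and -0.08) but was higher with MS172 than with PK9328 at 0.13 ± 0.035 (SE; edgeR adjusted p = 0.00337). NCL and NPM1 were also higher with MS172 than with PK9328, by 0.13 and 0.14, NCL not without PK9328 replicate 2 (edgeR adjusted p = 0.102), and MYBBP1A was at 0.09 (edgeR adjusted p = 0.0579).

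The box C/D snoRNP, which methylates ribosomal RNA, split within itself with MS172. FBL (chromosome 19, 39834458 to 39846414), fibrillarin, its methyltransferase, had 388, 422 and 408 CPM with MS172, 341, 338 and 361 CPM with PK9328, and 365, 355 and 383 CPM with DMSO. Its MS172 values lay above all others. NOP56 (chromosome 20, 2652145 to 2658393), one of the scaffold proteins of the same particle, had 107, 106 and 103 CPM with MS172, 133, 129 and 138 CPM with PK9328, and 128, 125 and 134 CPM with DMSO. Here the MS172 values lay below all others. FBL rose at 0.14 ± 0.039 (SE; edgeR adjusted p = 0.00479) and NOP56 fell at -0.29 ± 0.040 (SE; edgeR adjusted p = 1.39e-06). NOP58, the second scaffold protein, also fell, at -0.13 ± 0.040 (SE; edgeR adjusted p = 0.0116). With PK9328 the log2 fold changes were -0.08 for FBL, 0.05 for NOP56 and 0.02 for NOP58, none called (edgeR adjusted p = 0.153, 0.477 and 0.772). MS172 against PK9328 gave 0.23, -0.34 and -0.15, all called. The FBL rise was not called with the centred GC and length offset or with length-scaled TPM (highest edgeR adjusted p = 0.148).

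The box H/ACA snoRNP converts uridine to pseudouridine. With MS172 against DMSO 1 of its 3 members was called (33.3%, near the 35.1% of all tested genes). With PK9328 against DMSO none was, where 15.5% of all tested genes were. NHP2 rose with MS172 at 0.13 ± 0.045 (SE; edgeR adjusted p = 0.0247), with 171, 170.2 and 153 CPM in MS172 libraries against 154, 145 and 152 CPM with DMSO, and the groups overlapped. That call was lost when MS172 replicate 1 or 2 or DMSO replicate 2 or 3 was left out (edgeR adjusted p = 0.05 to 0.125). DKC1, the pseudouridine synthase, stood at 0.03 (95% interval -0.05 to 0.10) with MS172 and -0.05 (95% interval -0.13 to 0.02) with PK9328, and GAR1 at 0.06 (95% interval -0.06 to 0.18) and -0.08 (95% interval -0.20 to 0.04). Between the compounds NHP2 (0.17) and GAR1 (0.14) were higher with MS172, GAR1 not when MS172 or PK9328 replicate 2 or 3 was left out (edgeR adjusted p = 0.082 to 0.202). The GAR1 call was also lost under 5 of 11 other settings, DESeq2 and the replicate block among them.

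Of 10 other snoRNP factors, 4 rose with MS172 (40.0%, against 17.9% of all tested genes) and none fell, where 17.2% of all genes did. With PK9328 2 rose (20%, against 7.98%) and 1 fell (10.0%, against 7.48%). SNU13, a core protein of the box C/D particle, rose with MS172 at 0.20, NOP10, a core protein of the H/ACA particle, at 0.20, and RUVBL1, an ATPase that helps assemble both, at 0.19. NOP10 and TGS1, which modifies the cap of snoRNAs, rose with PK9328 at 0.14 and 0.16, and RUVBL2, the partner of RUVBL1, fell at -0.15 with PK9328 and rose with MS172 at 0.16. MS172 was higher than PK9328 in RUVBL2 (0.32) and RUVBL1 (0.27) and lower in TGS1 (-0.31).

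**Figure D3:**
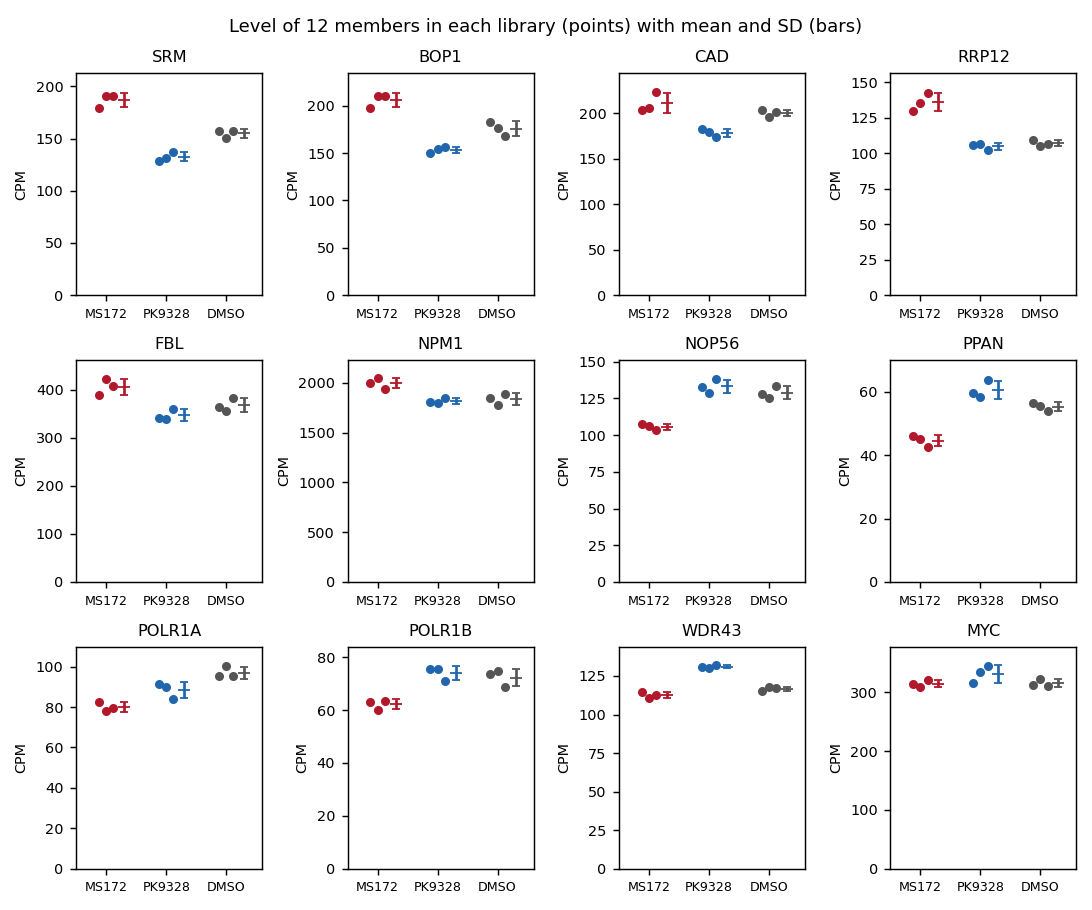
CPM of 12 members in each library (points), with the mean and SD of the 3 libraries of a group beside them; each vertical axis starts at 0. SRM and BOP1 are highest with MS172 and lowest with PK9328, NOP56 and PPAN are lowest with MS172, and the MYC groups overlap.

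Small subunit factors held the member with the largest rise with MS172. RRP12 (chromosome 10, 97356358 to 97426076), which helps export the small subunit precursor, had 130.1, 136 and 143 CPM with MS172, 105, 107 and 102 CPM with PK9328, and 109, 105 and 107 CPM with DMSO. Every MS172 library was above every other, and PK9328 and DMSO overlapped. It rose with MS172 at 0.35 ± 0.040 (SE; edgeR adjusted p = 7.08e-08), was not called with PK9328 at -0.03 (95% interval -0.11 to 0.05), and was higher with MS172 than with PK9328 at 0.38 ± 0.040 (SE; edgeR adjusted p = 6.24e-09). RRP9 (chromosome 3, 51933430 to 51941941), a protein of the U3 snoRNP that starts small subunit processing, had 68.4, 67.3 and 69.7 CPM with MS172, 59.6, 60.0 and 59.9 CPM with PK9328, and 62.8, 57.2 and 61.7 CPM with DMSO, the MS172 values again standing apart. It rose with MS172 at 0.18 ± 0.046 (SE; edgeR adjusted p = 0.00312) and stood at -0.02 (95% interval -0.11 to 0.08) with PK9328.

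Proteins of the small subunit processome, the large particle that makes the first cuts, fell in part with MS172. UTP20 (chromosome 12, 101280109 to 101386616), the least expressed member, had 19.1, 18.1 and 18.7 CPM with MS172, 20.9, 21.7 and 22.3 CPM with PK9328, and 24.1, 21.9 and 21.8 CPM with DMSO. MS172 libraries were the lowest, and the others overlapped. UTP20 fell at -0.28 ± 0.068 (SE; edgeR adjusted p = 0.00185) and WDR3, another processome protein, at -0.22 ± 0.045 (SE; edgeR adjusted p = 0.000422). NAT10 (chromosome 11, 34105602 to 34147670), the acetyltransferase of the small subunit RNA, fell at -0.16 ± 0.042 (SE; edgeR adjusted p = 0.00491), with 109, 114 and 119 CPM in MS172 libraries against 129.9, 118 and 132 CPM with DMSO, where the groups overlapped. All 3 falls lost their call with the offset that also sets the level. With PK9328 NAT10 stood at -0.11, below DMSO without overlap but not called (edgeR adjusted p = 0.0643). It was called lower with PK9328 without DMSO replicate 2 (edgeR adjusted p = 0.00605). Between the compounds NAT10 was at -0.04, not called, so its fall was not particular to MS172. UTP20 and WDR3 stood at -0.06 and -0.02 with PK9328, not called.

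WDR43 (chromosome 2, 28894643 to 28948222), an early processome protein, was the only member called higher with PK9328. Its libraries had 115, 111 and 113 CPM with MS172, 131, 130.2 and 132 CPM with PK9328, and 115, 118 and 117 CPM with DMSO. PK9328 values formed a tight group above all others, and the MS172 values lay below those of DMSO without overlap. It rose with PK9328 at 0.17 ± 0.036 (SE; edgeR adjusted p = 0.00165), stood at -0.05 (95% interval -0.12 to 0.03) with MS172 and was lower with MS172 than with PK9328 at -0.22 ± 0.037 (SE; edgeR adjusted p = 1.63e-05). UTP4, from the same early complex, stood at 0.04 (95% interval -0.05 to 0.12) with MS172 and 0.07 (95% interval -0.01 to 0.16) with PK9328, and NOB1, the nuclease of the last cut, at 0.0047 (95% interval -0.08 to 0.09) and -0.0016 (95% interval -0.08 to 0.08).

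Of 45 other small subunit factors, 5 rose (11.1%, against 17.9% of all tested genes) and 15 fell (33.3%, against 17.2%) with MS172. With PK9328 2 rose (4.44%, against 7.98%) and 1 fell (2.22%, against 7.48%). Between the compounds 9 were higher with MS172 (20%, against 23.3%) and 18 lower (40.0%, against 24.4%). The atypical kinase RIOK1, which releases late factors, fell with MS172 at -0.33, and UTP6 fell at -0.29, whereas ESF1 rose at 0.33. The kinase RIOK2 rose with both compounds, at 0.18 with MS172 and 0.20 with PK9328, and the helicase DDX47 fell with both, at -0.10 and -0.17. PNO1 rose with PK9328 at 0.20 and stood at 0.06 with MS172. Between the compounds RIOK1 and NOP14 were lower with MS172 (-0.45 and -0.27) and ESF1 higher (0.38).

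Large subunit factors held the member with the largest fall with MS172. PPAN (chromosome 19, 10106289 to 10111634), an early large subunit assembly factor, had 45.9, 45.2 and 42.5 CPM with MS172, 59.7, 58.5 and 63.8 CPM with PK9328, and 56.6, 55.5 and 54.0 CPM with DMSO. The 3 groups did not overlap, with MS172 lowest and PK9328 highest. PPAN fell with MS172 at -0.31 ± 0.050 (SE; edgeR adjusted p = 1.43e-05), was not called with PK9328 at 0.13 ± 0.048 (SE; edgeR adjusted p = 0.0644), and was lower with MS172 than with PK9328 at -0.45 ± 0.050 (SE; edgeR adjusted p = 1.67e-08). PPAN shares exons with the readthrough gene PPAN-P2RY11, which had 1.41 ± 0.774 CPM with MS172, 0.724 ± 0.643 CPM with PK9328 and 0.734 ± 0.334 CPM with DMSO (SD, n = 3 each), so the split of reads between them is uncertain.

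BOP1 (chromosome 8, 144262102 to 144291370), which forms the PeBoW complex with PES1 and WDR12, had 197, 211 and 211 CPM with MS172, 150.2, 155 and 156 CPM with PK9328, and 183, 176 and 169 CPM with DMSO. The groups were apart, with MS172 highest and PK9328 lowest. It rose with MS172 at 0.23 ± 0.039 (SE; edgeR adjusted p = 2.9e-05), fell with PK9328 at -0.20 ± 0.039 (SE; edgeR adjusted p = 0.000622), and differed between them by 0.42 ± 0.039 (SE; edgeR adjusted p = 3e-10). Its partners were not called against DMSO: PES1 stood at 0.08 (95% interval 0.0028 to 0.16) with MS172 and -0.07 (95% interval -0.15 to 0.0094) with PK9328, and WDR12 at -0.09 (95% interval -0.18 to 0.0045) and -0.03 (95% interval -0.11 to 0.06). Between the compounds PES1 was higher with MS172 at 0.15 ± 0.038 (SE; edgeR adjusted p = 0.00181), and WDR12 was at -0.06 (95% interval -0.15 to 0.03).

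NOP2 (chromosome 12, 6556863 to 6568691), a methyltransferase of the large subunit RNA, had 98.7, 96.0 and 98.3 CPM with MS172, 116, 114 and 118 CPM with PK9328, and 112, 107 and 115 CPM with DMSO. MS172 libraries lay below all others. NOP2 fell with MS172 at -0.19 ± 0.040 (SE; edgeR adjusted p = 0.000441) and was lower with MS172 than with PK9328 at -0.25 ± 0.040 (SE; edgeR adjusted p = 6.13e-06). NIP7, another large subunit assembly factor, went the other way and rose with MS172 at 0.15 ± 0.049 (SE; edgeR adjusted p = 0.0167), a call lost without MS172 replicate 1 or 3 or DMSO replicate 2 (edgeR adjusted p = 0.0525 to 0.116). MRTO4, an assembly factor related to a stalk protein of the ribosome, fell with MS172 at -0.12 ± 0.047 (SE; edgeR adjusted p = 0.0434), a call lost when any of the 6 libraries compared except DMSO replicate 2 was left out (edgeR adjusted p = 0.0671 to 0.187). That call was also lost under 7 of 11 other settings, among them RLE scaling, DESeq2, no filter and the replicate block.

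The other large subunit members were not called against DMSO. NOP16 stood at 0.13 (95% interval 0.02 to 0.24) with MS172 (edgeR adjusted p = 0.0672) and -0.01 (95% interval -0.12 to 0.10) with PK9328. RRS1, which brings in the 5S particle, stood at -0.07 (95% interval -0.19 to 0.05) and -0.02 (95% interval -0.14 to 0.10), and GNL3, nucleostemin, a nucleolar GTPase, at 0.04 (95% interval -0.05 to 0.13) and -0.06 (95% interval -0.14 to 0.03). Between the compounds NOP16 (0.14) and NIP7 (0.22) were called higher with MS172 and MRTO4 (-0.14) lower. GNL3 stood at 0.10 between them, not called. It was called higher with MS172 under RLE scaling, under both GC and length offsets and without PK9328 replicate 1 (lowest edgeR adjusted p = 5.97e-05), and lower, at -0.17, with length-scaled TPM (edgeR adjusted p = 0.0258). The NOP16 call was lost without MS172 or PK9328 replicate 1 or 2 (edgeR adjusted p = 0.0861 to 0.183) and that of MRTO4 without MS172 or PK9328 replicate 3 (edgeR adjusted p = 0.0516 to 0.0769). Of 11 other settings, 3 ended the NOP16 call and 4 that of MRTO4.

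Of 45 other large subunit factors, 9 rose and 9 fell with MS172 (20% each, against 17.9% and 17.2% of all tested genes), and 4 rose (8.89%, against 7.98%) and 3 fell (6.67%, against 7.48%) with PK9328, all near the shares over all genes. RSL1D1, a nucleolar ribosomal L1 domain protein, fell with MS172 at -0.38 and MAK16 at -0.44, and RSL24D1, an assembly factor placed where a ribosomal protein later sits, rose at 0.32. RSL24D1 also rose with PK9328 (0.26), as did NMD3, the export adaptor of the large subunit (0.21), and MAK16 (0.19), and NOC2L fell (-0.15). NMD3 fell with MS172 at -0.12 and NOC2L rose at 0.11. MS172 was lower than PK9328 in MAK16 (-0.63), RSL1D1 (-0.42) and the ATPase NVL (-0.47).

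Polyamine and nucleotide enzymes held the widest difference between the compounds. SRM (chromosome 1, 11054584 to 11060024), spermidine synthase, whose E-box is printed above, had 179, 191 and 191 CPM with MS172, 129, 131 and 137 CPM with PK9328, and 157, 150.3 and 158 CPM with DMSO. The 3 groups were fully separate, with MS172 highest and PK9328 lowest. SRM rose with MS172 at 0.27 ± 0.038 (SE; edgeR adjusted p = 2.08e-06), fell with PK9328 at -0.23 ± 0.038 (SE; edgeR adjusted p = 0.0001), and was higher with MS172 than with PK9328 at 0.50 ± 0.038 (SE; edgeR adjusted p = 8.58e-12). CAD (chromosome 2, 27217390 to 27243943), which carries out the first steps of pyrimidine synthesis, had 204, 206 and 224 CPM with MS172, 183, 179 and 174 CPM with PK9328, and 203, 196 and 201 CPM with DMSO. PK9328 libraries lay below the others. CAD fell with PK9328 at -0.16 ± 0.038 (SE; edgeR adjusted p = 0.0033), stood at 0.08 (95% interval -0.0018 to 0.15) with MS172 and was higher with MS172 than with PK9328 at 0.24 ± 0.038 (SE; edgeR adjusted p = 6.5e-06). With length-scaled TPM, which takes account of the transcripts used, CAD was called higher with MS172 against DMSO (0.57) and was not called with PK9328. Which CAD transcripts lay behind the value of 0.57 was not tested.

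ODC1 (chromosome 2, 10439968 to 10448504), the rate-limiting enzyme of polyamine synthesis, had 110.3, 114 and 111 CPM with MS172, 110.0, 111 and 107 CPM with PK9328, and 110.1, 107 and 114 CPM with DMSO. Its groups overlapped, and it was not called in any of the 3 comparisons, at 0.02 (95% interval -0.06 to 0.10), -0.01 (95% interval -0.09 to 0.07) and 0.03 (95% interval -0.05 to 0.11). SRM acts in the step after ODC1 in the same pathway.

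Of 30 other polyamine and nucleotide enzymes, 9 rose (30.0%, against 17.9% of all tested genes) and 4 fell (13.3%, against 17.2%) with MS172. With PK9328 2 rose (6.67%, against 7.98%) and 6 fell (20%, against 7.48%). Between the compounds 14 were higher with MS172 (46.7%, against 23.3%) and 3 lower (10.0%, against 24.4%). SMS, spermine synthase, rose with MS172 at 0.29 and OAZ1, the antizyme that marks ODC1 for breakdown, at 0.26. The nucleoside diphosphate kinase NME2 rose at 0.27, with reads shared with the readthrough gene NME1-NME2. SAT1 and SMOX, which break polyamines down, rose with PK9328: SAT1 had 71.3 ± 3.94 CPM with PK9328 and 48.2 ± 2.90 CPM with DMSO, and SMOX had 15.3 ± 0.941 CPM with PK9328 and 10.6 ± 0.352 CPM with DMSO (SD, n = 3 each). Their log2 fold changes were 0.56 and 0.53 (edgeR adjusted p = 2.76e-09 and 4.74e-05). TYMS, thymidylate synthase, fell with PK9328 at -0.26. SAT1 fell with MS172 at -0.22 and was lower with MS172 than with PK9328 at -0.79, and SMS (0.32) and IMPDH1, an enzyme of guanine nucleotide synthesis (0.32), were higher.

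By role, the median log2 fold change with MS172 was -0.22 over 3 polymerase I subunits, 0.02 over 28 processing and assembly members and 0.08 over 3 polyamine and nucleotide enzymes. With PK9328 these were -0.05, -0.03 and -0.16. Each median over 3 is the value of 1 gene, POLR1B and CAD with MS172, and POLR1C and CAD with PK9328. In the further lists, the medians with MS172 were -0.03 over 13 polymerase I genes and 0.02 over 30 enzymes. The same lists had medians of 0.08 and -0.04 with PK9328. Over all tested genes the medians were -0.02 with MS172 and 0.0023 with PK9328. Of the 28 processing and assembly members, 7 rose with MS172, where 17.9% of all tested genes rose, and 8 fell (28.6%, against 17.2%). With PK9328 1 of them rose (3.57%, against 7.98% of all tested genes) and 3 fell (10.7%, against 7.48%). With MS172, members called in opposite directions stood side by side in the box C/D snoRNP, among small subunit factors and among large subunit factors. Over all tested genes 17.9% rose and 17.2% fell, so calls in both directions are not particular to these lists.

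**Figure D4:**
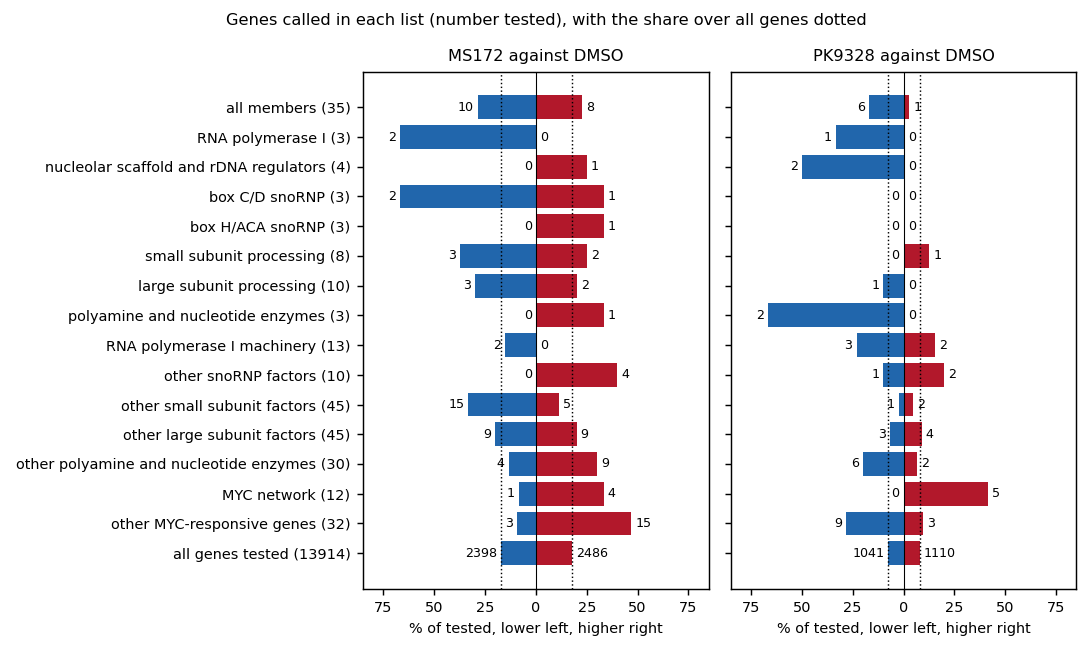
Share of the tested genes of each list called lower (left) or higher (right), with the number called beside each bar, for MS172 against DMSO and PK9328 against DMSO; n = 3 libraries per group. Dotted lines mark the share over all 13914 genes: 17.2% lower and 17.9% higher with MS172, 7.48% lower and 7.98% higher with PK9328.

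The MYC network itself held several called genes beside an uncalled MYC. Of 12 tested genes of the network, 4 rose (33.3%, against 17.9% of all tested genes) and 1 fell (8.33%, against 17.2%) with MS172. With PK9328 5 rose (41.7%, against 7.98%) and none fell, where 7.48% of all genes did. MYCN did not pass the filter. MNT, a repressor that competes for MAX, had 44.9 ± 2.37 CPM with MS172, 40.8 ± 1.73 CPM with PK9328 and 30.7 ± 1.81 CPM with DMSO (SD, n = 3 each). MNT was thus higher with both compounds, at 0.55 and 0.41 (edgeR adjusted p = 1.18e-08 and 6.69e-06). MXD1, another MAX-binding repressor, rose with both at 0.36 and 0.57, as did MAX at 0.19 and 0.24. MXD4, of the same family as MXD1, rose with MS172 at 0.31 and stood at 0.01 with PK9328. Between the compounds MXD4 was higher with MS172 (0.30), and the MYC paralog MYCL (-0.44) and MLX (-0.17), a MAX-like partner of MNT and MXD proteins, were lower.

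The transcripts behind the gene sums also differed for some members. CAD, PPAN and MYBBP1A are shown as examples that lay apart from DMSO. Many other transcripts overlapped with DMSO under both compounds, those of MYC among them. The share of all transcripts that lay apart was not counted. Reads of CAD fell mostly on CAD-201, a coding transcript of 7265 bases, which took 58.1, 53.0 and 55.2% with MS172, 74.1, 86.2 and 77.3% with PK9328, and 72.8, 66.4 and 76.1% with DMSO. MS172 shares lay below all others. The shorter coding transcript CAD-202 (6900 bases) took 35.01, 41.8 and 39.7% with MS172, 23.0, 10.96 and 20.9% with PK9328, and 25.1, 33.5 and 22.2% with DMSO, with the MS172 values above the rest. CAD-201 and CAD-202 are close in length, and the part of their shift in the length-scaled TPM value of CAD was not tested. PPAN-208, annotated as a retained intron, took 19.3, 20.7 and 19.9% with MS172, 14.9, 16.4 and 13.2% with PK9328, and 13.3, 15.8 and 15.7% with DMSO of the PPAN reads, again highest with MS172. MYBBP1A-205, also annotated as a retained intron, took 29.9, 22.9 and 19.5% with MS172, 17.8, 18.0 and 18.1% with PK9328, and 14.5, 17.7 and 16.2% with DMSO of MYBBP1A reads, with DMSO lowest. With 3 libraries against 3 an exact permutation test cannot give a p below 0.10, two-sided, and a share is an estimate that rests on how the quantification divided reads between overlapping transcripts. For 34 of the 35 members the leading transcript was the same over all libraries and over DMSO libraries alone.

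**Figure D5:**
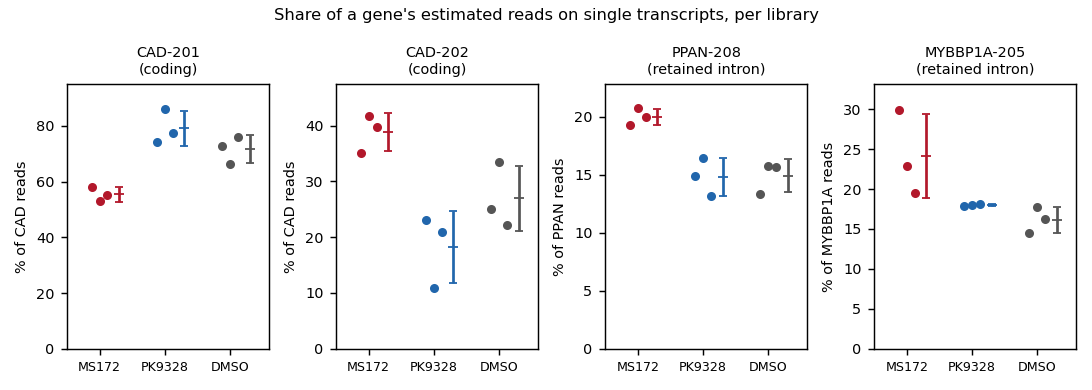
Share of a gene's estimated reads on 4 single transcripts in each library (points), with the mean and SD of each group (n = 3 libraries) beside them; vertical axes start at 0. CAD-201 is lowest and CAD-202 and PPAN-208 are highest in the MS172 libraries.

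Base composition moved with the calls. Members that rose with MS172 had a median transcript GC content of 58.1% and those that fell 51.7%, and over all tested genes the medians were 54.2% for genes that rose and 47.9% for genes that fell. The median length was 1512 bases for members that rose and 3281 bases for members that fell, and over all genes 2159 and 3507 bases. For PK9328 the 6 members that fell had a median GC content of 59.4%, against 51.0% for members not called. With the centred GC and length offset the MS172 calls of FBL, NHP2 and WDR3 were lost, and with the offset that also sets the level POLR1B, NOP58, UTP20, WDR3, NAT10 and MRTO4 were no longer called lower. RRP9, RRP12, BOP1, SRM, POLR1A, NOP56, PPAN and NOP2 kept theirs under every alternative run. Length-scaled TPM ended the MS172 calls of FBL, NHP2, NPM1 and MRTO4 against DMSO and those of NCL, NOLC1, NPM1 and MRTO4 against PK9328. No PK9328 call against DMSO was kept under all of them, and those of SRM, BOP1 and WDR43 were lost only with the fragment length covariate.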

How the data were processed

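RNA of 9 samples was sequenced by the submitters, with FastQC 0.11.8 and the build hg38 named in the submitters' processing notes, while the quantification program is not given in the sources used here. Per the file headers, the deposited tables hold an estimated count of reads, a TPM value normalised to transcript length and library total, and a length and an effective length for 197653 transcripts in each library. Of these transcripts, 193348 were matched to GENCODE 29 by identifier, and the rest held 0.356% to 0.382% of reads and were left out. Expected counts were summed per gene, rounded and tested in R 4.3.3 with edgeR 4.0.16 and its quasi-likelihood test (TMM scaling, robust dispersion, filterByExpr, all 9 libraries in 1 fit, 6 residual degrees of freedom), and p-values were adjusted after Benjamini and Hochberg over 13914 genes with a threshold of 0.05. CPM and TPM are relative amounts. TPM served to order members and give the level of MYC, and counts rebuilt from length-scaled TPM were 1 alternative.

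Groups and replicate numbers came from the sample titles. The genotype that all groups share is not reported here. All 35 members are named, and of 188 further genes in lists of the pathway up to 3 per list and comparison with the smallest p among called genes. Members, lists and rules were chosen with earlier results of these data known. Alternatives were RLE scaling, DESeq2 1.42.0, limma-voom (limma 3.58.1), a filter of 1 CPM in 3 libraries or none, a block for the replicate number, length-scaled TPM, fragment length as a covariate, GC and length offsets (mgcv 1.9.3) that were centred or also set the level, the 6 libraries compared alone, and leaving out each library. Gene positions, 1-based, follow GENCODE 29 (GRCh38). Reads shared by overlapping genes had been divided by the authors' quantification, and the sources used here do not state whether strand was used.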

Additional observations from a re-analysis of the deposited data

How the results depend on the processing

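Over the single members, the call (higher, lower or not called) was unchanged in 548 of 595 settings for MS172 against DMSO. It was unchanged in 564 of 595 for PK9328 against DMSO and 521 of 595 for MS172 against PK9328. A change of sign in a member called in neither fit was not counted. Among values called in the main fit or in the alternative, 3 changed sign, all with length-scaled TPM. They were POLR1A for PK9328 against DMSO (0.14), and NPM1 (-0.10) and GNL3 (-0.17) for MS172 against PK9328. Coding transcripts held 99.1% of POLR1A reads but 76.3% of its TPM with PK9328, and 99.6% and 87.2% with DMSO, where the groups overlapped. Retained introns of NPM1 held 3.09% of reads but 28.8% of TPM with PK9328, and 1.29% and 15.3% with MS172. For MS172 against DMSO, the offset that also sets the level gave 16 members higher and 4 lower. For PK9328 against DMSO, length-scaled TPM gave 1080 genes and 2 members higher and 3 lower, the fragment length covariate 175 genes and 0 members higher and 0 lower, and either offset 2 members higher. For MS172 against PK9328, the covariate gave 2474 genes, with 4 members higher and 3 lower, and the offset that sets the level 4 lower. The cause was not tested.

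Leaving out 1 library gave, for MS172 against DMSO, 3874 to 4453 genes against 4884, with 5 to 8 members higher and 9 to 10 lower. For PK9328 against DMSO it gave 1384 to 2215 genes against 2151, with 1 member higher in every case and 3 to 6 lower; the lowest counts came without DMSO replicate 1 (1384 genes) and PK9328 replicate 2 (1400 genes). For MS172 against PK9328 it gave 5651 to 6150 genes against 6641, with 11 to 15 members higher and 9 to 11 lower.

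The titles share replicate numbers, but same-numbered libraries did not deviate together (correlations -0.0569 to 0.0174), so the numbers were not taken as pairs. With the replicate block 4597, 1884 and 6405 genes were called, and 8 and 9 members higher and lower for MS172 against DMSO, 1 and 5 for PK9328 against DMSO, and 13 and 10 for MS172 against PK9328. Differences near 0.1 on the log2 scale were close to what the spread between 3 libraries could resolve.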

Other observations

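Of 32 other MYC-responsive genes outside ribosome production, 15 rose and 3 fell with MS172 against DMSO, and 3 rose and 9 fell with PK9328 against DMSO, beside 17.9% and 17.2%, and 7.98% and 7.48%, of all tested genes. HK2, a hexokinase of glycolysis, had 59.8 ± 2.92 CPM with MS172, 54.8 ± 2.10 CPM with PK9328 and 39.4 ± 1.88 CPM with DMSO (SD, n = 3 each), and it was called higher with both compounds (0.60 and 0.48). SLC7A5, a transporter of large amino acids, had 470.1 ± 6.15 CPM with MS172, 487 ± 2.39 CPM with PK9328 and 371 ± 4.62 CPM with DMSO, and was also called higher with both (0.34 and 0.39). EIF4E, which binds the cap of mRNAs, had 85.8 ± 1.20 CPM with MS172, 59.9 ± 2.76 CPM with PK9328 and 66.4 ± 0.732 CPM with DMSO, and rose with MS172 at 0.37 (edgeR adjusted p = 1.23e-07). IPO4, an importin, fell with PK9328 at -0.23. Between the compounds EIF4E (0.52), HSPE1, a mitochondrial chaperonin (0.43), and PKM, a pyruvate kinase (0.33), were higher with MS172. The median log2 fold change over the 32 genes was 0.09 with MS172 and -0.08 with PK9328; the list was chosen with earlier results known and was given no test.

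Transcript shares of several further members also lay apart from DMSO, and NOLC1 and POLR1B are examples picked with their values known. NOLC1-207, a coding transcript of 2441 bases, took 28.2, 25.9 and 28.6% with MS172, 36.8, 36.5 and 39.3% with PK9328, and 32.9, 33.9 and 34.2% with DMSO of the NOLC1 reads, the groups being separate. POLR1B-204, a coding transcript of 3836 bases, took 30.4, 34.2 and 31.0% with MS172, 24.3, 26.0 and 23.6% with PK9328, and 20.6, 25.8 and 23.6% with DMSO of the POLR1B reads, with MS172 above the rest.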
